A study of Rattus norvegicus with 6 samples.

Results

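The genes described here encode the respiratory chain and the ATP synthase of the mitochondrion, and they were taken by symbol from the count table of rat pituitary glands. They comprise the 13 protein genes of the mitochondrial genome and 91 nuclear genes, together 104 of the 33294 symbols counted. The nuclear genes were those named Nduf with a subunit letter, Sdha to Sdhd, Uqcr, Cox4 to Cox8, Cyc1 and Atp5. By complex, 36 nuclear genes belong to complex I, 4 to complex II, 9 to complex III, 19 to complex IV and 17 to complex V, with Ndufa4 and Ndufa4l2 placed in complex IV. A further 6 symbols name copies or pseudogenes of such genes. The respiratory chain moves electrons from NADH and succinate through complexes I to IV to oxygen, and complex V, the ATP synthase, uses the proton gradient that this builds. Complexes I, III, IV and V each combine proteins of both genomes, whereas complex II is made of nuclear proteins alone. The mitochondrial genome is copied into long RNAs from both strands, which are then cut into messenger, transfer and ribosomal RNAs.

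Pituitary RNA was sequenced from 3 male Sprague-Dawley rats whose dams carried a pump with nicotine tartrate (6 mg/kg per day) and from 3 males whose dams carried a pump with saline. All rats were 11 weeks old, and each library stands for 1 rat. Which rats shared a litter is not known, so p-values measure only the spread between these libraries. The comparison asks whether gestational nicotine left a difference in the RNA of the adult gland. Library totals ran from 28318383 to 85977002 counts. A list of reads per library in the study's supplement puts the groups the other way round, with more reads in controls. Directions below follow the labels of the deposited samples, and which assignment is right was not settled here. The list bears on read totals alone. Under these labels Acta2, a smooth muscle actin gene, was at 2.79, 2.37 and 2.45 CPM after nicotine and 0.247, 0.957 and 0.458 CPM in controls, where these CPM are not TMM-scaled. The extraction text of the labels speaks of testis, but of 12 germ cell markers of the testis none passed the filter on low counts, and their summed level was 0.207 to 0.459 CPM, counts for each 1000000 counts of the library. The 14 pituitary hormone cell markers counted, among them Gh1, Prl and Pomc, summed to 123530 to 178192 CPM. The glands were sequenced whole, so fewer cells of a type and less RNA per cell cannot be told apart.

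Together the 13 mitochondrial genes took a large and uneven share of the counts, and the unevenness lay within both groups rather than between them. They held 8.84%, 4.29% and 8.69% of all counts in nicotine replicates 1, 2 and 3, and 7.57%, 9.94% and 4.45% in control replicates 1, 2 and 3. The low libraries were thus 1 of each group, nicotine replicate 2 and control replicate 3, and the highest share was 2.32 times the lowest. The mean was 7.27% ± 2.58 (SD, n = 3) after nicotine and 7.32% ± 2.75 (SD, n = 3) in controls, a difference well inside the spread between rats (exact two-sided permutation test p = 1). With 3 libraries against 3 this test cannot give a p under 0.1. Counting error is small beside this spread, since the widest 95% Wilson interval of a library's share spans 0.019 percentage points. Nicotine replicate 2 had the most counts of all libraries, and control replicate 3 had the second fewest. Markers of the posterior lobe summed to 362 CPM in nicotine replicate 2 and 62.1 in control replicate 3, the highest and the lowest of the 6 libraries. Markers of red cells were lowest in nicotine replicate 2 (3303 CPM) and highest in control replicate 3 (16572). The part of depth and of these cells in the mitochondrial share was not tested.

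The 91 nuclear genes together held a smaller share of the counts, which are not per length, and the share varied less. Their share was 1.45%, 1.24% and 1.43% after nicotine and 1.501%, 1.33% and 1.48% in controls, so nicotine replicate 2 was again the lowest. The means were 1.37% ± 0.117 and 1.44% ± 0.0936 (SD, n = 3 each; exact permutation p = 0.5). The widest 95% Wilson interval of this share was 0.009 percentage points. Mitochondrial counts outnumbered nuclear ones 6.10, 3.47 and 6.08 times after nicotine and 5.04, 7.46 and 3.00 times in controls. The 2 genomes therefore did not keep a fixed ratio from rat to rat, and the groups overlapped (exact permutation p = 1 for the log2 ratio).

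**Figure D1:**
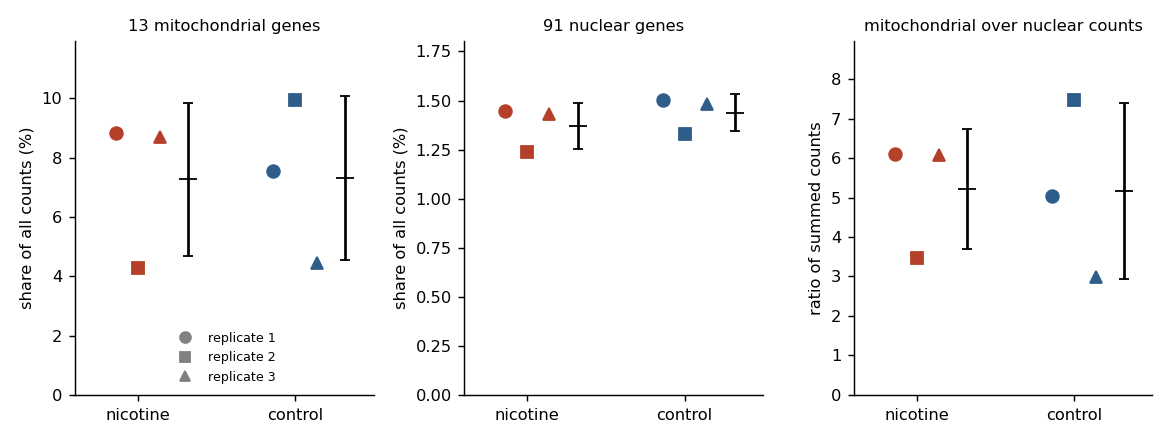
Share of all counts on the 13 mitochondrial genes (left, %), on the 91 nuclear genes (middle, %) and the ratio of their summed counts (right), with 1 symbol per library and the mean with its SD (n = 3) as a black bar. Nicotine replicate 2 and control replicate 3 lie low in the left panel, at 4.29% and 4.45%, and the groups overlap in every panel.

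For none of the 13 mitochondrial genes did the difference between the groups exceed the spread between rats. All 13 passed the filter, edgeR's quasi-likelihood test called 0 (fold change over 1.5, adjusted p under 0.1), and 0 had an unadjusted p under 0.05. Over all 17292 genes tested edgeR called 0, which is 0%. DESeq2 called 0 of the 13, against 58 or 0.335% of all genes. The log2 fold changes, nicotine minus control, ran from -0.38 (ND3) to 0.37 (CYTB), with 9 above 0 and 4 below. Their standard errors ran from 0.26 to 0.44. The median was 0.07, but it depended on single libraries and turned to -0.22 without control replicate 3 and to 0.36 without nicotine replicate 2. For 13 of the 13 genes the groups overlapped. Nicotine replicate 2 was the lowest library for 8 of them and control replicate 3 for the other 5, while over all genes tested nicotine replicate 2 was lowest for 26.8%.

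COX1, COX2 and COX3 form the catalytic core of complex IV, cytochrome c oxidase. COX1 was at 14890, 9962 and 21421 CPM after nicotine and 20782, 25582 and 10422 CPM in controls, where the CPM of single genes are scaled by the TMM factors. The low pair was nicotine replicate 2 and control replicate 3, and the group difference was -0.30 on the log2 scale (SE 0.39, adjusted p = 0.898). COX3 was at 18304, 6970 and 18957 CPM after nicotine and 17041, 22521 and 9247 CPM in controls, with a log2 fold change of -0.14 (SE 0.42). COX2 followed the same order of libraries at its low end, from 4262 CPM in nicotine replicate 2 and 4416 CPM in control replicate 3 to 10972 CPM in nicotine replicate 3.

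CYTB, the only mitochondrial subunit of complex III, had the largest positive difference among the mitochondrial genes. Its level was 5778, 3689 and 5548 CPM after nicotine and 3999, 4997 and 2594 CPM in controls (log2 fold change 0.37, SE 0.29, adjusted p = 0.856). Control replicate 3 lay below every nicotine library, while control replicates 1 and 2 lay above nicotine replicate 2. Without nicotine replicate 2 the unadjusted p of CYTB and of ND1 came under 0.05, and neither was called.

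ND1 to ND6 and ND4L are core subunits of the membrane arm of complex I. ND3 spread most of the 13, with 6300, 1615 and 5351 CPM after nicotine and 5050, 8028 and 4177 CPM in controls, so its highest library held 4.97 times its lowest. ND1 spread least, by 1.78 times. ND2 (log2 fold change 0.26), ND1 (0.29) and ND5 (0.28) lay above 0 with standard errors of 0.40, 0.26 and 0.31, and ND4 and ND4L were at 0.08 and 0.01. ND4L and ND4 overlap in the mitochondrial genome, as do ATP8 and ATP6, and the treatment of reads in such overlaps is not given in the sources used here. ATP6 and ATP8, the mitochondrial subunits of the ATP synthase, had log2 fold changes of 0.05 and -0.01.

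ND6 is the one protein of this genome that is encoded on the light strand, opposite to the other 12. Nicotine replicates 1, 2 and 3 had 1219, 874 and 2267 counts on it, and control replicates 1, 2 and 3 had 629, 1772 and 477. For every 1000 counts on the other 12 genes that was 0.298, 0.237 and 0.415 counts after nicotine and 0.294, 0.328 and 0.289 counts in controls. The nicotine libraries held both the lowest and the highest of these values, and the control libraries lay between them (exact permutation p = 0.8). The libraries were made with a kit that keeps strand, but the strand setting of the counting is not given in the sources used here.

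**Figure D2:**
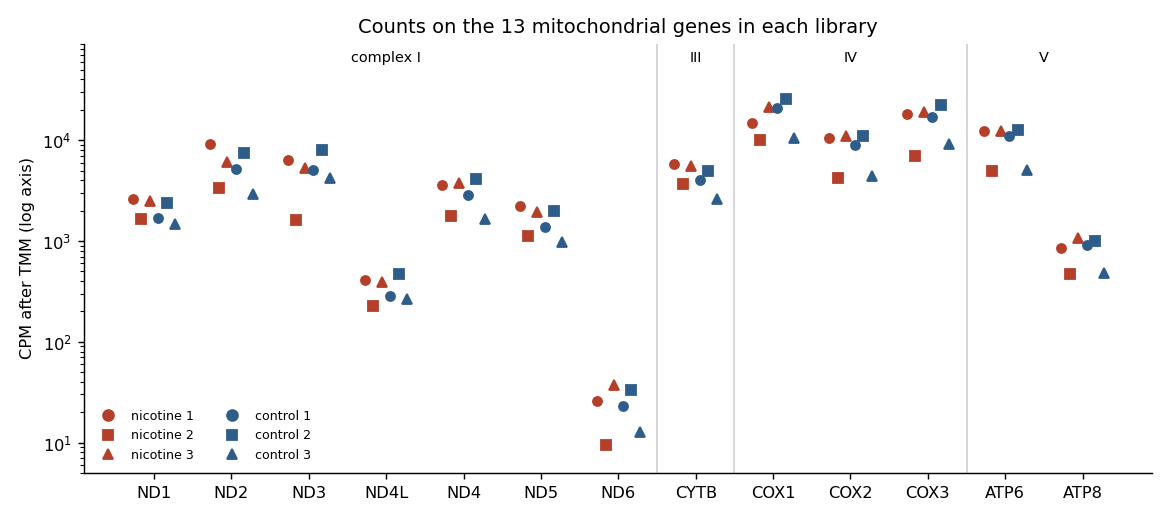
CPM after TMM scaling (log axis) of each of the 13 mitochondrial genes in each library, ordered by complex, with nicotine in red and control in blue. Nicotine replicate 2 (red squares) and control replicate 3 (blue triangles) lie low for most genes, and ND6 lies between 9.49 and 37.5 CPM.

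The makeup of the mitochondrial counts was then compared apart from their amount. Within those counts the groups did not overlap for 3 of the 13 genes. CYTB made up 6.66%, 9.21% and 6.14% of mitochondrial counts after nicotine and 5.05%, 4.90% and 5.95% in controls, and ND4 made up 4.10%, 4.46% and 4.14% against 3.58%, 4.05% and 3.75%. COX3 was below, with 21.1%, 17.4% and 21.0% after nicotine and 21.5%, 22.1% and 21.2% in controls. Each of these reached p = 0.1, the smallest an exact permutation test gives here, and 13 genes were compared. Any full separation of 3 libraries from 3 gives this p. After Benjamini-Hochberg adjustment over the 13 genes, the permutation p of each was 0.371. The shares sum to a whole, so they are not independent, and in level no mitochondrial gene was without overlap. In level, nicotine lay wholly above for 6.12% and wholly below for 5.14% of all genes tested. The complex IV genes COX1 to COX3 together made up 50.3%, 52.9% and 56.8% after nicotine and 59.1%, 57.8% and 55.2% in controls, where nicotine replicate 3 lay above control replicate 3 (exact permutation p = 0.2).

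Of the 91 nuclear genes, 86 passed the filter. Those that did not are Cox6a2, Cox7b2 and Cox8c, isoforms known from muscle or germ cells, and the pseudogenes Ndufb4l1-ps1 and Cox6c-ps1, which had 0 counts in every library and could be present at up to 0.0349 CPM in the deepest and 0.106 CPM in the shallowest library. Cox6a2 had 4 to 9 counts in a library, Cox7b2 0 to 5 and Cox8c 0 to 2. The 86 genes include 4 of the 6 copies.

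No nuclear gene was called by edgeR or by DESeq2, which called 0 and 58 (0.335%) of all 17292 genes tested. At an unadjusted p under 0.05 there was 1 higher gene, Cox4i2, and 0 lower genes, where 3.12% of all genes were higher and 2.73% lower at that p. Adjusted over all genes tested, the p of the 86 genes ran from 0.831 to 0.999 with edgeR. Below 0 lay 56 of the 86 log2 fold changes, or 65.1%, against 48.8% of all genes tested, and their median was -0.08 against 0.01 over all genes. Without nicotine replicate 2, 42 of 86 were below 0, against 53.1% of all genes in that fit, and the median was 0.01. Without control replicate 1 the number below 0 and the median were 48 and -0.03. They were 64 and -0.15 without nicotine replicate 3, and 62 and -0.15 without control replicate 2. The nicotine libraries all lay above the control libraries for 4 nuclear genes and all below for 2, while this held for 6.12% and 5.14% of all genes tested. The 4 above are Cox4i2, Ndufa4l2, Ndufv3 and Atp5f1d, and Atp5f1c is described below.

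**Figure D3:**
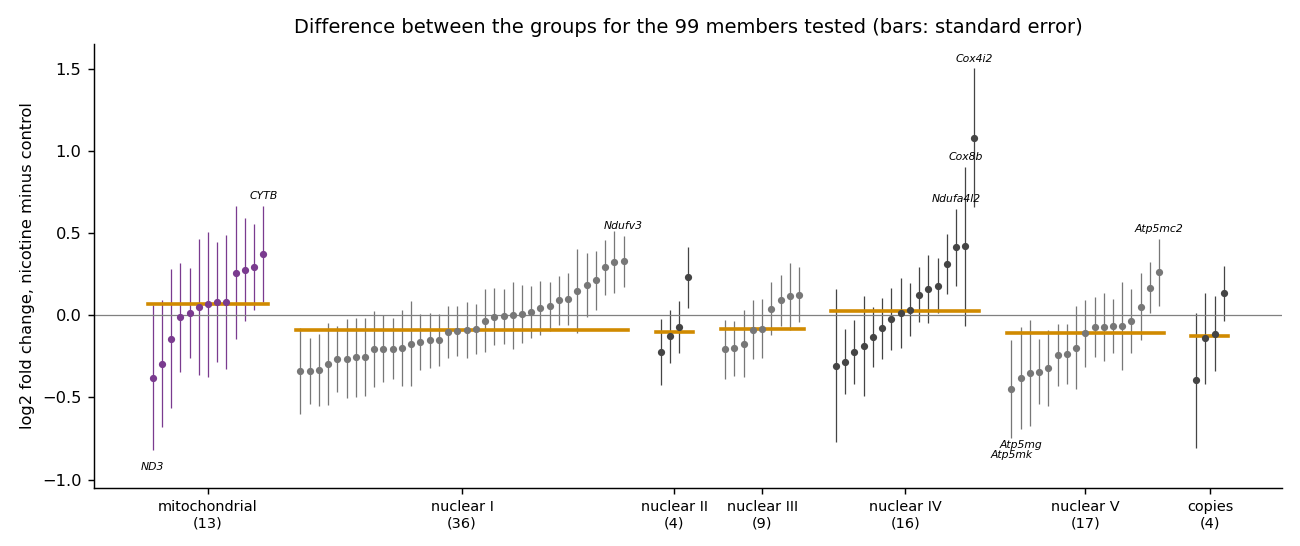
Log2 fold change (nicotine minus control) of the 99 members tested, sorted within each group, with the standard error as a bar and the median of each group as an orange line. The medians lie between -0.13 and 0.07, and Cox4i2 at 1.08 is the only gene beyond 0.5 in either direction.

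Complex I, which takes electrons from NADH, had 36 nuclear genes tested, of which 24 lay below 0 (median -0.09). Ndufa1, an accessory subunit, was at 257, 140 and 282 CPM after nicotine against 289, 261 and 265 CPM in controls, and its log2 fold change of -0.26 became -0.02 without nicotine replicate 2. Ndufv3, an accessory subunit of the NADH dehydrogenase module, had the smallest p of the complex. It was at 61.9, 75.4 and 69.6 CPM after nicotine and 57.5, 57.1 and 50.1 CPM in controls (log2 fold change 0.33, SE 0.16, unadjusted p = 0.059 and adjusted p = 0.839 from edgeR). Ndufa11, which helps hold the membrane arm together, was at 76.1, 86.7 and 88.3 CPM after nicotine and 79.2, 66.4 and 59.8 CPM in controls, and its groups overlapped. Ndufs6 is at 3.72 to 6.08 CPM, and the newer RefSeq table gives this symbol as an older name of a pseudogene, so which sequence was counted is uncertain. Cox6b1 has the same limit.

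Complex II links the citrate cycle to the chain by oxidising succinate, and its 4 genes showed no common direction. Sdha, the flavoprotein that holds the active site, was at 123, 186 and 133 CPM after nicotine and 127, 121 and 128 CPM in controls. Nicotine replicate 2 alone stood out, and the log2 fold change of 0.23 shrank to 0.02 without it. Sdhc, one of the membrane anchors, was at 210, 185 and 214 CPM after nicotine and 239, 212 and 215 CPM in controls (-0.13, SE 0.16). Sdhd, the other anchor, was at 151, 104 and 149.5 CPM after nicotine against 188, 147 and 138 CPM in controls, with nicotine replicate 2 the lowest.

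In complex III, which passes electrons from ubiquinol to cytochrome c, 5 of 9 genes lay below 0 (median -0.08). Uqcrfs1, the Rieske iron-sulfur protein, was at 175, 181 and 172 CPM after nicotine and 219, 170 and 219 CPM in controls. Its 3 nicotine values lay close together while control replicate 2 lay under all of them (log2 fold change -0.20, SE 0.17). Uqcrc2, a core protein, was at 177, 161 and 182 CPM after nicotine against 237, 201 and 162 CPM in controls (-0.21, SE 0.18). Cyc1, which carries the cytochrome c1 heme, ran from 78.5 to 99.3 CPM over all libraries, and its log2 fold change was 0.09.

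The catalytic and cofactor-bearing subunits can be read as a group. Of 15 such core subunits of complexes I, II, III and V, all tested, 10 lay below 0, with log2 fold changes between -0.27 (Ndufs3) and 0.23 (Sdha) and a median of -0.07. For 11 of the 15 the highest library held less than 1.5 times the lowest, and for 36 of all 86 nuclear genes. Over the 86 genes this ratio of highest to lowest had a median of 1.56, and over the 13 mitochondrial genes its median was 2.54.

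The nuclear genes of complex IV include pairs of isoforms that differ by tissue. Cox4i1, the general form of subunit 4, was at 674, 542 and 682 CPM after nicotine and 721, 634 and 652 CPM in controls (log2 fold change -0.08, SE 0.18). Cox4i2, the form known from lung, vessels and oxygen-sensing cells, was at 1.08, 1.13 and 2.63 CPM after nicotine and 0.739, 0.851 and 0.687 CPM in controls. Every nicotine library lay above every control library, and nicotine replicate 3 was the highest. The log2 fold change was 1.08 (SE 0.42, unadjusted p = 0.0268, adjusted p = 0.831 from edgeR), and without nicotine replicate 3 it was 0.54. The counts behind it are low, from 20 to 159 in a library.

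Ndufa4l2, the low-oxygen counterpart of the complex IV subunit Ndufa4, was at 5.33, 4.18 and 5.73 CPM after nicotine and 4.02, 4.10 and 3.302 CPM in controls. Again the groups did not overlap, narrowly between nicotine replicate 2 and control replicate 2 (log2 fold change 0.41, SE 0.24, adjusted p = 0.848). Ndufa4 itself was at 308, 212 and 316 CPM after nicotine and 328, 279 and 222 CPM in controls, with a log2 fold change of 0.01. Markers of smooth muscle and pericytes, cells of the vessel wall, also leaned higher after nicotine. All 10 had a log2 fold change above 0 and 5 had an unadjusted p under 0.05. For 3 of the 10 every nicotine library lay above every control library. Over all genes tested 3.12% were higher at that p and 6.12% lay wholly above. Their sum was 85.9, 67.5 and 219 CPM after nicotine and 63.8, 64.5 and 53.4 in controls, and in nicotine replicate 3 the marker Tagln alone gave 133. Of 7 endothelial markers 7 lay above 0, and their sum was 253, 197 and 290 after nicotine against 152, 195 and 152 in controls. Neither sum is TMM-scaled. After TMM scaling, the median over the muscle and pericyte markers, relative to each gene's mean on the log2 scale, was -0.15 in nicotine replicate 2. It was -0.11 in control replicate 2. For the endothelial markers these medians were -0.08 and -0.02. Other marker lists differed as well. All 6 markers of fibroblasts and meninges, all 8 of leukocytes and all 6 of red cells had log2 fold changes below 0. At an unadjusted p under 0.05 from edgeR these lists had 6, 4 and 5 lower genes. Of 7 posterior lobe markers 6 lay above 0. The part of vessel cells or other cells in the levels of Cox4i2 and Ndufa4l2 was not tested.

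**Figure D4:**
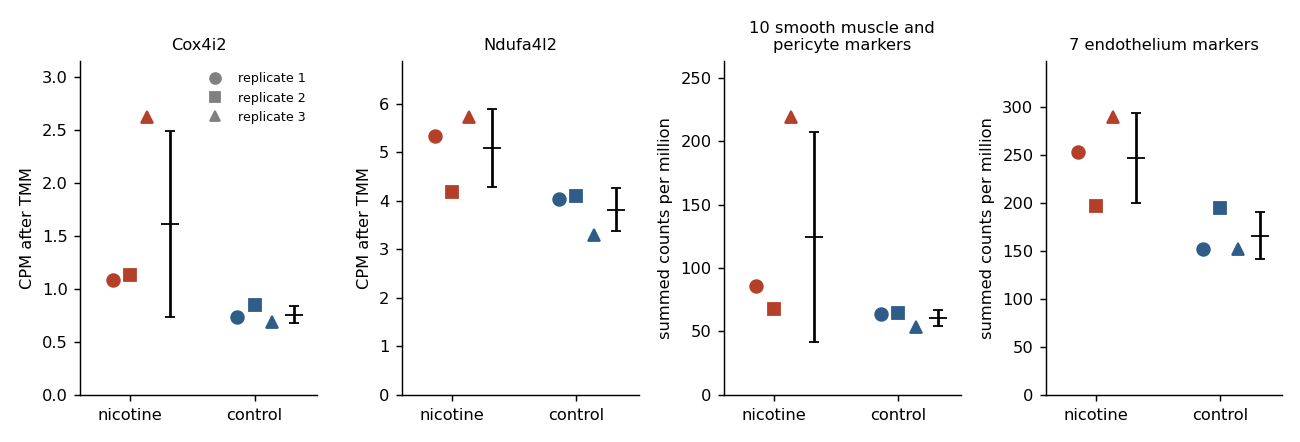
Level of Cox4i2 and Ndufa4l2 (CPM after TMM scaling) and summed CPM of 10 smooth muscle and pericyte markers and of 7 endothelium markers, with 1 symbol per library and the mean with its SD (n = 3) as a black bar. The nicotine libraries lie above the control libraries in each panel, narrowly for the marker sums, which are not TMM-scaled. Nicotine replicate 3 is the highest in each. After TMM scaling, the median deviation of each marker list from the gene means was lower in nicotine replicate 2 than in control replicate 2.

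For the other isoforms tested the nicotine and control libraries overlapped. Cox8a was at 94.1, 142 and 127 CPM after nicotine and 102, 91.4 and 99.5 CPM in controls (log2 fold change 0.31, SE 0.18, adjusted p = 0.848), and nicotine replicate 1 lay within the control range. Cox8b, a muscle form, had 8 to 22 counts in a library and a log2 fold change of 0.42 with a standard error of 0.48. Cox6a1 and Cox6b1 lay at 0.12 and 0.18, Cox6b2 at -0.31 with 13 to 69 counts in a library. Cox7a2l, a factor in joining complexes III and IV, was at 392, 248 and 323 CPM after nicotine and 407, 378 and 385 CPM in controls (-0.28, SE 0.20). Cox7a2 and Cox7b had log2 fold changes of -0.02 and -0.19, and that of Cox7b turned to 0.11 without nicotine replicate 2. Of the muscle markers listed only 4 of 12 passed the filter, with a sum of 7.14 to 13.2 CPM.

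In complex V 14 of 17 genes lay below 0 (median -0.11), and without nicotine replicate 2 it was 10 of 17 (median -0.03). Atp5f1b and Atp5f1a, the catalytic beta and the alpha subunit of the F1 head, were the most counted nuclear genes of the complex. Atp5f1b was at 1004, 1205 and 1046 CPM after nicotine and 1275, 972 and 1089 CPM in controls, a log2 fold change of -0.04 (SE 0.20). Atp5f1a was at 540, 740 and 565 CPM after nicotine and 583, 509 and 688 CPM in controls (0.05, SE 0.20). Some small subunits differed from these in nicotine replicate 2, where 13 of the 17 genes lay below the mean of the other 5 libraries. Of all 86 nuclear genes tested, 68 lay below that mean as well. In complex V those above it were Atp5f1a, Atp5f1b, Atp5f1d and Atp5mc2. Atp5mg, subunit g of the membrane part, was at 636, 239 and 597 CPM after nicotine and 663, 617 and 637 CPM in controls. Atp5mk, another small membrane subunit, was at 211, 79.5 and 185 CPM after nicotine and 203, 207 and 238 CPM in controls, the most negative log2 fold change of all members (-0.45, SE 0.30, adjusted p = 0.852). Without nicotine replicate 2 these differences were -0.06 and -0.14. Atp5f1e, the epsilon subunit, was likewise at 201 CPM in that library and at 456 to 625 CPM in the other 5. Atp5f1c, the gamma subunit of the central stalk, had no overlap, with 200, 132 and 192 CPM after nicotine and 253, 206 and 206 CPM in controls (-0.35, SE 0.20, adjusted p = 0.848). Atp5f1d, the delta subunit, lay the other way, at 227, 203 and 210 CPM against 188, 182 and 200 CPM (0.17, SE 0.16). The copy Atp5hl1 had 22 to 60 counts in a library and a log2 fold change of -0.40 (SE 0.41), and reads that fit its parent gene as well leave its count uncertain.

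The c ring of the ATP synthase is encoded by a trio of genes that give the same mature protein. Atp5mc1 was at 213, 187 and 204 CPM after nicotine and 223, 187 and 222 CPM in controls (log2 fold change -0.07, SE 0.16). Atp5mc2 was at 130, 185 and 165 CPM after nicotine and 156, 142 and 103 CPM in controls (0.26, SE 0.20). Atp5mc3 was at 232, 205 and 220 CPM after nicotine and 270, 202 and 305 CPM in controls (-0.24, SE 0.19). For all of them the groups overlapped, and the sign differed between the genes without any of the differences passing the test.

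Across the nuclear genes nicotine replicate 2 was the lowest library for 47 of 86 and the highest for 11, against 26.8% and 26.9% of all genes tested. Relative to each gene's mean over the 6 libraries, its median was -0.21 on the log2 scale over the nuclear genes, -0.46 over those of complex V and -0.69 over the mitochondrial genes. The 11 genes highest there include Sdha, Atp5f1a, Uqcrc1, Cyc1, Ndufs1, Cox8a, Cox6a1 and Atp5mc2. Other groups of genes also stood apart in this library. The 85 cytosolic ribosomal protein genes had a median of -0.45 and the 21 genes of glycolysis and lactate transport 0.48. Control replicate 3, low for the mitochondrial genes at -0.66, had a median of 0.02 over the nuclear genes. The nuclear and the mitochondrial members were thus low together in nicotine replicate 2 but not in control replicate 3.

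**Figure D5:**
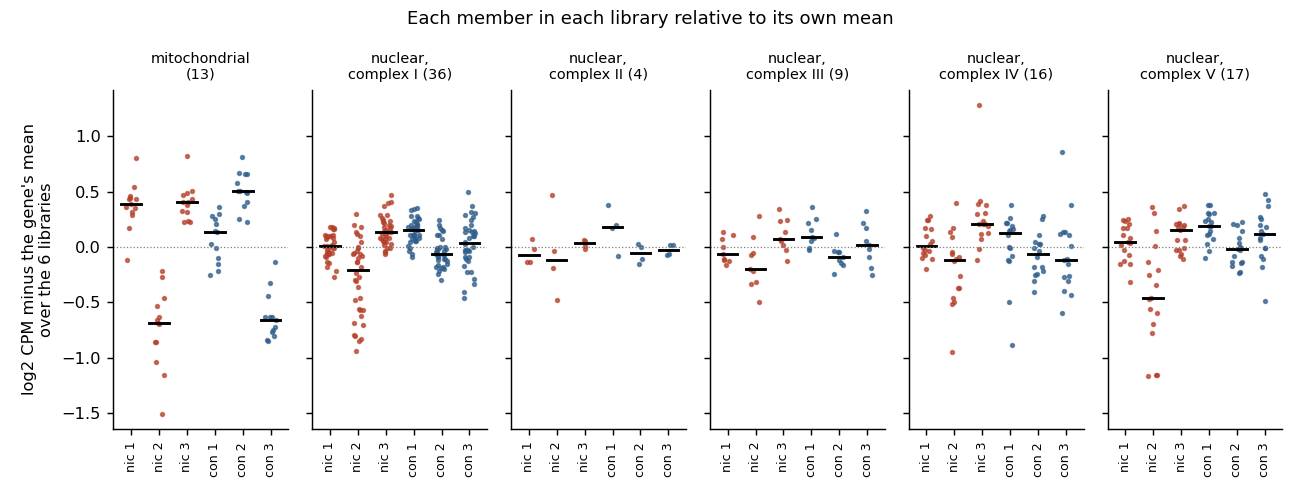
Each member in each library as log2 CPM minus the mean of that gene over the 6 libraries, for the 13 mitochondrial genes and for the nuclear genes of complexes I to V, with the median as a black line. In nicotine replicate 2 the medians lie at -0.69 for the mitochondrial genes and at -0.46 for complex V, while some members of each nuclear complex lie above 0 there.

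Nuclear genes of the respiratory chain are known targets of the transcription factor NRF1 and of ETS factors, whose sites lie close to the start of transcription, and YY1 is another such factor. RefSeq promoter windows of the build GRCr8, from 250 bases before the start to 50 bases into the gene, matched 76 of the 91 nuclear members by symbol. The letters GCGCATGC, the core of the NRF1 motif, stood on either strand in 9 of the 76 windows, or 11.8%, against 2.47% of all 33469 windows and 4.15% of the windows of genes tested. CCGGAAGT, an ETS motif, stood in 8 (10.5%, against 3.81% of all windows and 6.38% of those of genes tested), and AGATGGCG, a YY1 motif, in 11 (14.5%, against 2.20% and 3.45%). Among the 73 windows of tested members the NRF1 core stood in 8 (11%), the ETS motif in 8 (11%) and the YY1 motif in 11 (15.1%). At least 1 of the 3 motifs was found in 25 of the 76 windows. The NRF1 core overlaps its own reverse complement by all but 2 letters, so both strands can match at nearly the same place. Of the YY1 matches 9 of 11 lay past the start.

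The 120 bases just before the start are given for 4 members with the NRF1 core there, picked to show values on both sides of 0 in nicotine replicate 2, and for Ndufa4l2, which holds none of the 3 motifs in its window. Each runs 5′ to 3′ on the strand of the gene, with the NRF1 core and its reverse complement in capitals.
Atp5mc2, chr7:135678219-135678338, minus strand: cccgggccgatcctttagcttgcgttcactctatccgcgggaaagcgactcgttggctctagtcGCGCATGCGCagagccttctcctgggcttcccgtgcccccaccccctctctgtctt
Atp5po, chr11:44657484-44657603, minus strand: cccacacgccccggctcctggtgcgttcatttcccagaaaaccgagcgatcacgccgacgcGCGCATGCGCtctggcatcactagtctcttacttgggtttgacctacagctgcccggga
Atp5me, chr14:1464740-1464859, plus strand: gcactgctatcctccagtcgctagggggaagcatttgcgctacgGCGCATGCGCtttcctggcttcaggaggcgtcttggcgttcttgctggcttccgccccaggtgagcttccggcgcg
Ndufa11, chr9:1637494-1637613, plus strand: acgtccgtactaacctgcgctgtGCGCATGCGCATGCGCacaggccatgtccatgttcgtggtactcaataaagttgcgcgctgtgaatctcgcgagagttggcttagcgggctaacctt
Ndufa4l2, chr7:65242049-65242168, plus strand: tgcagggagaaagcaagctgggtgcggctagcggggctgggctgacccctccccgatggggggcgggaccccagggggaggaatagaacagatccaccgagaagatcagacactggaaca
The core begins 56 bases before the start in Atp5mc2, 59 in Atp5po, 76 in Atp5me and 97 in Ndufa11, where it is repeated. In nicotine replicate 2 Atp5mc2 lay 0.36 above its mean over the 6 libraries on the log2 scale and Ndufa11 0.20 above, while Atp5po lay at -0.69 and Atp5me at -0.59. Of all 8 tested members with the core in their window, 5 lay below their mean in that library and 3 above, with a median of -0.31, while of the 73 tested members with a window 57 lay below and 16 above (median -0.23). A match of letters is not evidence that a factor was bound. Nrf1 itself was at 19.2, 21.6 and 20.9 CPM after nicotine and 19.1, 17.8 and 18.4 CPM in controls, without overlap and with a log2 fold change of 0.16 (SE 0.15, adjusted p = 0.861). Gabpa, an ETS factor, and Yy1 had log2 fold changes of -0.13 and -0.04.

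Other genes of the same pathway gave no calls by edgeR or DESeq2 either, where these tests called 0% and 0.335% of all genes tested. Over all genes tested 48.8% lay below 0, and 2.73% were lower at an unadjusted p under 0.05. Of 45 assembly factors, which build the complexes, 36 lay below 0 (median -0.13) and 1 had an unadjusted p under 0.05. That gene is Pet100, a factor of complex IV assembly, at 41.7, 28.9 and 48.5 CPM after nicotine and 74.0, 64.9 and 42.5 CPM in controls (log2 fold change -0.61, SE 0.24, adjusted p = 0.839). Nicotine replicate 2 was the lowest library for 27 of the 45, against 26.8% of all genes tested. The mean share of all counts on the assembly factors was 0.149% after nicotine, 0.157% without that library and 0.162% in controls. Of 25 genes that maintain and express the mitochondrial genome 16 lay below 0 (median -0.11). Tfam, which packages that genome and starts its transcription, was at 64.5, 51.3 and 59.2 CPM after nicotine and 83.2, 65.5 and 73.7 CPM in controls. Its groups did not overlap (-0.35, SE 0.17, adjusted p = 0.839), while Polrmt, the mitochondrial RNA polymerase, lay the other way at 7.81, 9.54 and 9.98 CPM against 7.24, 7.32 and 7.502 CPM (0.31, SE 0.19). Nicotine lay wholly above for 1 of the 25 genes and wholly below for 2, against 6.12% and 5.14% of all genes tested.

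Among 20 regulators 12 lay below 0, and Ppargc1a, a coactivator of mitochondrial genes, was at 1.74 to 4.33 CPM with a log2 fold change of -0.20. Nicotine lay wholly above for 1 of the 20, Nrf1, and wholly below for 1. Of 22 genes for electron carriers and for electron entry outside complexes I and II, 13 lay below 0. At an unadjusted p under 0.05 there was 1 higher gene, against 3.12% of all genes tested. The higher gene was Gpd2, the mitochondrial glycerol phosphate dehydrogenase, at 17.7, 14.3 and 16.8 CPM after nicotine and 10.1, 13.0 and 13.2 CPM in controls (0.42, SE 0.18, adjusted p = 0.839). Of 73 mitochondrial ribosomal protein genes 45 lay below 0 (median -0.07), and of 11 carriers of the inner and outer membrane 5 did (median 0.01).

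The citrate cycle and glycolysis leaned the other way. Of 25 genes of the citrate cycle and pyruvate entry 18 lay above 0 (median 0.07), and of 21 glycolytic genes 16 did (median 0.24). Nicotine replicate 2 was the highest library for 12 of the first and 15 of the second. The mean shares of all counts on the 2 lists were 0.265% and 0.506% after nicotine and 0.252% and 0.445% in controls. Without nicotine replicate 2 the nicotine means were 0.250% and 0.441%, slightly under the control means. Gapdh was at 342, 488 and 407 CPM after nicotine and 336, 289 and 315 CPM in controls, without overlap (log2 fold change 0.40, SE 0.19, adjusted p = 0.839). Nicotine lay wholly above for 2 of the 21 glycolytic genes, against 6.12% of all genes tested. Hk1, the first enzyme of glycolysis, was at 107, 182 and 132 CPM after nicotine and 105, 109 and 115 CPM in controls (0.36, SE 0.20). Ldha was at 310, 256 and 322 CPM against 373, 312 and 326 CPM (-0.19, SE 0.18). No gene of these lists passed the test, and nicotine replicate 2 was the extreme library in many of them.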

How the data were processed

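Pituitary RNA of 3 nicotine and 3 control rats was sequenced, and the deposited values are whole-number counts per gene symbol. According to the methods, the authors mapped stranded paired-end reads to rn7 with HISAT2 (2.1.0 per the labels' processing notes) and assigned them with featureCounts. The treatment of strand, of multiply mapped reads and of overlapping genes, and the removal of ribosomal RNA, are not given in the sources used here. Groups came from the sample labels. Of 33294 symbols, 17292 passed filterByExpr, and the quasi-likelihood test of edgeR 4.0.16 (R 4.3.3) was fitted to all of them after TMM scaling, with no covariate and Benjamini-Hochberg adjustment. Calls needed a fold change over 1.5 with an adjusted p under 0.1, and DESeq2 1.42.0 and limma 3.58.1 were alternatives. CPM of members and pathway genes are TMM-scaled, while marker sums and shares use all counts. CPM are not per transcript length, so levels are not compared between genes. The standard error is the log2 fold change divided by the square root of F. Depth was 28318383 to 85977002 counts per library, and intervals cover counting error only. No pair of libraries agreed within sampling noise. The edgeR fit was tested on simulated counts, and the permutation test on a set of values with a known answer. Members and lists were chosen with earlier results of these data known. Named are all 13 mitochondrial genes, the 2 most counted nuclear genes per complex, core subunits, isoform groups, the 3 largest differences in each direction and the 3 smallest p. Other genes are named for a count of 5 or fewer, as most counted or best-known of a list, or for an overlap of groups, and were chosen after their values were seen. 1 gene that the rule names is not reported here.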

Additional observations from a re-analysis of the deposited data

How the results depend on the processing

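No member was called under any alternative. Over all 17292 genes tested the main edgeR fit called 0 and DESeq2 58, so this says little about the members. Calls over all genes are not given for the other alternatives. The alternatives were DESeq2, limma voom with quality weights, RLE scaling, library sizes alone, mitochondrial genes left out and no filter. Others were 10 counts in every library, thinning to the smallest library, a replicate block and each library left out. The limits were also changed, to no limit on the fold change and to 0.05 on the adjusted p. The number of nuclear members with an unadjusted p under 0.05 was 2 with library sizes alone, 0 after thinning, 0 with the replicate block and 0 to 4 with 1 library left out, and that of mitochondrial members was 0 to 2 with 1 library left out. The replicate numbers did not pair the libraries (correlations 0.0264, -0.198 and -0.0785), and the block gave medians of -0.09 for nuclear and 0.05 for mitochondrial members. With 1 library left out the nuclear median lay between -0.15 and 0.01 and the mitochondrial median between -0.22 and 0.36. The difference in the mitochondrial share of counts lay between -1.48 and 1.45 percentage points, and that in the nuclear share between -0.12 and 0.00028. The log2 ratio of the genomes lay between -0.28 and 0.38, and that of ND6 between -0.19 and 0.21. With limma voom and quality weights 45 nuclear members were below 0 (median -0.0041), and with library sizes alone the median of all genes moved to 0.06 and that of nuclear members to -0.04. Of 735 values of 50 named members under the alternatives 57 changed sign, 45 of them among the 300 with 1 library left out, and only Cox4i2, at 0.54 without nicotine replicate 3, moved by over 1 SD. The cause of these shifts was not tested. Depth limits Cox4i2, Cox8b, Cox6b2 and Atp5hl1 most.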
